A study of Homo sapiens with 6 samples.

Results

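The genes described here encode the receptors for interferons and for the interleukin 10 (IL10) family, together with the kinases bound to them. The set held 7 genes, namely IFNAR1, IFNAR2, IL10RB, IFNGR1, IFNGR2, JAK1 and TYK2, out of 28848 genes that had a summed count of at least 10. IFNAR2, IL10RB, IFNAR1 and IFNGR2 lie next to each other on chromosome 21, whereas IFNGR1, JAK1 and TYK2 lie on chromosomes 6, 1 and 19. Members were the genes to which GENCODE release 44 assigns 143 of the 251612 matched transcripts. The set was chosen by a measured value, the fold change between the groups of a readthrough gene of the cluster, IFNAR2-IL10RB, so values of the members in the same comparison are given as a description, and nothing is read from the number of them that passed a test.

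All libraries came from K562, a human erythroleukemia cell line, transduced with lentivirus carrying a pLKO.1 short hairpin RNA (shRNA). The shCtrl hairpin targets luciferase, which the cells lack, and the shPCBP1 hairpin targets PCBP1, a protein that binds C-rich RNA. Both groups were selected with 3 µg/ml puromycin for 4 days, and each held 3 poly-A RNA libraries. The comparison asked how loss of PCBP1 changes RNA levels and transcript forms, with 1 hairpin for each group.

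Interferons and IL10-family cytokines signal through paired receptor chains. IFNAR1 and IFNAR2 together bind type I interferons, IFNGR1 and IFNGR2 bind interferon gamma, and IL10RB is the chain shared by receptors for IL10, IL22, IL26 and the lambda interferons. The chains have no enzyme activity of their own, and the kinases JAK1 and TYK2 bound to their cytoplasmic tails phosphorylate STAT proteins, which then act as transcription factors. TYK2 binds IFNAR1 and IL10RB, and JAK1 binds IFNAR2 and IFNGR1.

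The sequences that separate the transcript forms are given first, because the forms differ in a few exons only. All were read from the GRCh38 genome, 5′ to 3′ on the coding strand. IFNAR2 (chromosome 21, 33205282 to 33265675, plus strand) anchors in the membrane through exon 8 of its full-length transcript, IFNAR2-202, which has 9 exons. In the exon below, capitals mark the codons of the 19-residue window with the highest mean hydropathy, residues 244 to 262, with a Kyte-Doolittle mean of 2.49.
IFNAR2 transmembrane exon, chr21:33260597-33260727: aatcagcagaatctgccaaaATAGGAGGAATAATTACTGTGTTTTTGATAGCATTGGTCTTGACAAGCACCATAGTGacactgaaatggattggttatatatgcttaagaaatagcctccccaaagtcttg

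After this exon the transcripts divide between 2 acceptor sites, and the choice sets how long the cytoplasmic tail is. The upstream site leads to a short membrane form of 331 residues, and the downstream site to the full-length form of 515 residues. The soluble form, IFNAR2-201 with 239 residues, skips the transmembrane exon and joins the downstream site. In the windows below, the last 24 intron bases are in lower case and the first 6 exon bases in capitals.
transmembrane exon acceptor, chr21:33260573-33260602: agtcatttaatttttcatcaacagAATCAG
short-form acceptor, chr21:33262537-33262566: taagtttattttttatttttttagAGGCAA
full-length acceptor, chr21:33262769-33262798: tctctctttttttttttttttaagAATTTT
The intron part of the short-form window held 0% C, that of the full-length window 12.5%, and that of the transmembrane exon 16.7%.

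IFNAR2-IL10RB (chromosome 21, 33229892 to 33297160, plus strand) is a readthrough gene, whose transcripts begin in IFNAR2 and end in IL10RB. Its coding transcript, IFNAR2-IL10RB-202, joins exon 7 of IFNAR2 to exon 2 of IL10RB, so that it leaves out the transmembrane exon of IFNAR2 and the first exon of IL10RB. Transcripts 204 and 205 pass instead through an exon at 33266012 to 33266175, upstream of IL10RB, that neither parent transcript shown here uses. In the junctions below, the bases after the junction are in capitals.
readthrough, IFNAR2 exon 7 to IL10RB exon 2: ctggccaggaatcagCATTGGGAATGGTAC
IFNAR2 alone, exon 7 to exon 8: ctggccaggaatcagAATCAGCAGAATCTG
IL10RB alone, exon 1 to exon 2: gcctgctggtgtcagCATTGGGAATGGTAC
The readthrough junction shares its left side with IFNAR2 and its right side with IL10RB, so only reads that cross it tell it from its parents.

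PCBP1 itself was checked first. Its normalized counts were 40566, 38409 and 37799 in shCtrl and 6625, 7277 and 7221 in shPCBP1, which is 18.1% of the shCtrl mean. Library depth lay between 67066747 and 140522444 estimated counts, and the deepest libraries were in shCtrl. All 9 erythroid markers of K562 were present, with a summed TPM (a transcript abundance scaled by length and by library total) of 28958 to 34776 in shCtrl and 33158 to 34588 in shPCBP1. TFRC, the transferrin receptor (log2 fold change 0.35), TAL1 (0.19) and the globin gene HBG1 (0.16) passed the DESeq2 test. The number passing was 5 without shCtrl replicate 2 (4 higher and 1 lower) and 7 without shCtrl replicate 3. It was 2 without shPCBP1 replicate 1, where HBG1 (0.13) was lost. With transcript length offsets it was 2, and HBG1 (0.13) was lost there too. GATA1, not called with all libraries (-0.07), was the marker called lower without shCtrl replicate 2 (-0.08). It was also called lower with TMM factors (-0.08) and with protein-coding transcripts only (-0.10). Markers of T, B, monocytic and natural killer cells summed to 112 to 126 TPM in shCtrl and 93.5 to 118 TPM in shPCBP1. CD3D and LYZ held most of that sum, and CD3E, MS4A1 and NCAM1 averaged under 0.1 TPM in each group. Of these 9 markers, 4 were tested and 0 were called by DESeq2, with 0 at an unadjusted p under 0.05 and 0 called by edgeR. The part of these markers in the results was not tested.

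All 7 members were expressed, and their order by TPM, summed over coding and non-coding transcripts, was the same in both groups. In shCtrl, TYK2 was highest at 57.3 ± 2.43 TPM (SD, n = 3), followed by IFNAR1 at 43.2 ± 1.81, JAK1 at 32.5 ± 0.656 and IFNGR2 at 22.1 ± 1.20. IL10RB followed at 20.2 ± 1.24, IFNAR2 at 16.1 ± 1.46 and IFNGR1 at 11.8 ± 0.383 TPM. No neighbouring ranks overlapped between libraries in shCtrl, and none did in shPCBP1. The nearest pair was IFNGR2, whose lowest shCtrl library had 21.4 TPM, and IL10RB, whose highest had 20.999 TPM. IFNGR1, the ligand-binding chain for interferon gamma, was present at a lower TPM than its partner IFNGR2 in every library.

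In the comparison of groups, 4 of the 7 members had an adjusted p under 0.05, 1 of them higher and 3 lower in shPCBP1. Over all 17095 genes tested, the shares were 31.2% for either direction, 17.7% for higher and 13.5% for lower. The same 4 members had groups that did not overlap, against 44.2% of all genes tested. Of the members, 0 passed the study's rule of an absolute log2 fold change over 1 with a mean count over 10, which 1.37% of all genes passed. Nothing is read from these counts, because the set was proposed from this comparison. The median log2 fold change was -0.06 over the members and 0.00187 over all genes tested.

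**Figure D1:**
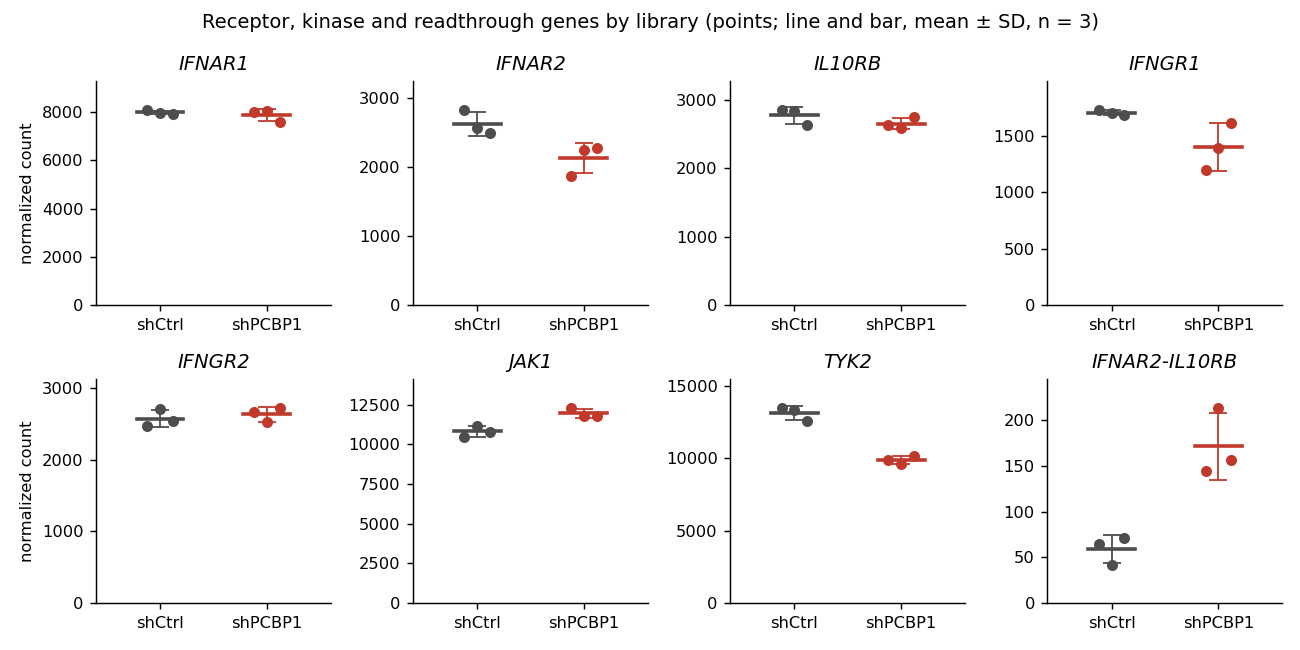
Normalized counts (vertical axes, each from 0) of the 7 receptor and kinase genes and of the readthrough gene in shCtrl (grey) and shPCBP1 (red). Points are libraries, and lines and bars are mean ± SD (n = 3). IFNAR2, IFNGR1 and TYK2 were lower and JAK1 and IFNAR2-IL10RB higher in every shPCBP1 library, while the groups of IFNAR1, IL10RB and IFNGR2 overlapped.

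IFNAR2 is the chain that binds type I interferon with high affinity. Its normalized counts were 2829, 2570 and 2495 in shCtrl and 1880, 2246 and 2281 in shPCBP1. Every shPCBP1 library was below every shCtrl library, and shPCBP1 replicate 1 was the lowest. The mean was 81.2% of shCtrl, a log2 fold change of -0.30 (SE 0.0829), which without that library was -0.22. In bulk RNA of this kind, fewer cells that express a gene and less RNA per cell cannot be told apart. In TPM the groups also stayed apart, at 16.1 ± 1.46 in shCtrl and 13.2 ± 0.848 in shPCBP1. When the readthrough counts were added to both parent genes, the log2 fold change of IFNAR2 was -0.22.

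IFNAR1 (chromosome 21, 33324387 to 33359864, plus strand), the partner chain, had 8067, 7942 and 7920 normalized counts in shCtrl and 8011, 8042 and 7584 in shPCBP1. The groups overlapped, and the mean in shPCBP1 was 98.8% of shCtrl (log2 fold change -0.02, SE 0.0433). The sign of this value was positive with transcript length offsets and without shPCBP1 replicate 3, at 0.01 in both, and it was -0.15 when only protein-coding transcripts were counted. Of the type I receptor pair, IFNAR2 was thus lower in shPCBP1 and IFNAR1 was within the spread of its libraries.

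IL10RB (chromosome 21, 33266367 to 33311420, plus strand), which starts just downstream of IFNAR2, had 2851, 2846 and 2632 normalized counts in shCtrl and 2630, 2593 and 2749 in shPCBP1. The groups overlapped, with a log2 fold change of -0.06 (SE 0.0641). Adding the readthrough counts to both parent genes gave -0.0026. Most of its TPM came from IL10RB-201, the coding transcript, with 17.7, 19.1 and 17.01 TPM in shCtrl and 16.6, 16.6 and 17.9 in shPCBP1.

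The interferon gamma receptor genes differed from each other. IFNGR1 (chromosome 6, 137197483 to 137219449, minus strand), the ligand-binding chain, had 1725, 1703 and 1684 normalized counts in shCtrl and 1195, 1392 and 1612 in shPCBP1. The shCtrl libraries were close together and the shPCBP1 libraries spread over a wide range below them. The log2 fold change was -0.29 (SE 0.0983), and it was -0.18 without shPCBP1 replicate 1. IFNGR1 was not among the members that passed the test without that library, without shPCBP1 replicate 2 (-0.28), without shCtrl replicate 1 (-0.28), 2 (-0.28) or 3 (-0.29), and with transcript length offsets (-0.24). In TPM its groups overlapped, at 11.8, 12.2 and 11.4 in shCtrl and 8.32, 9.69 and 11.6 in shPCBP1.

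IFNGR2 (chromosome 21, 33403413 to 33479348, plus strand), the signalling partner, had 2474, 2714 and 2536 normalized counts in shCtrl and 2668, 2521 and 2722 in shPCBP1. The groups overlapped (log2 fold change 0.04, SE 0.0661), and the value was -0.00087 when only protein-coding transcripts were counted. IFNGR2 shares sequence with TMEM50B on the opposite strand, which had a log2 fold change of -0.12 and was not called (DESeq2 adjusted p 0.0750). Whether the counting used strand was not given in the sources used here, so reads of the overlapping ends cannot be assigned with certainty. JAK1, IFNAR1 and IFNAR2 also overlap other annotated genes, on both strands, and IL10RB overlaps the readthrough gene, so this limit holds for them too.

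The kinases differed in opposite directions. JAK1 (chromosome 1, 64833223 to 65067754, minus strand) had 10481, 11188 and 10810 normalized counts in shCtrl and 12296, 11812 and 11807 in shPCBP1. All shPCBP1 libraries were above all shCtrl libraries, and the log2 fold change was 0.15 (SE 0.0414). It was 0.06 with transcript length offsets, where JAK1 was not among the members that passed the test, and 0.26 when only protein-coding transcripts were counted. In TPM the groups overlapped, at 32.5 ± 0.656 in shCtrl and 33.3 ± 0.450 in shPCBP1.

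TYK2 (chromosome 19, 10350533 to 10380608, minus strand) had 13463, 13324 and 12566 normalized counts in shCtrl and 9855, 9621 and 10176 in shPCBP1. This was the widest separation among the 7 members relative to its error, with a shPCBP1 mean of 75.4% of shCtrl and a log2 fold change of -0.41 (SE 0.0430). The value was -0.82 when only protein-coding transcripts were counted. In TPM the levels were 57.3 ± 2.43 in shCtrl and 45.4 ± 0.433 in shPCBP1.

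The transcript forms were then described, with TPM as deposited. Of the 143 member transcripts, 29 were listed at 0 in every library and 49 had a mean of at least 0.5 TPM. In a limma fit on log2(TPM + 0.1), 2 of these 49 had an adjusted p under 0.05, where 2.71% of 61505 transcripts did. The groups did not overlap for 10 of the 49, 3 above and 7 below shCtrl, where 26.3% of all transcripts did not. Both called transcripts, TYK2-209 and TYK2-220, retain an intron of TYK2. The call of TYK2-220 was lost without shCtrl replicate 1 (log2 fold change -0.88), shCtrl replicate 2 (-0.92) or shPCBP1 replicate 2 (-0.93). That of TYK2-209 was lost without shCtrl replicate 1, shCtrl replicate 2 or any single shPCBP1 replicate, and without shCtrl replicate 3 it fell under the minimum mean TPM. Its fitted difference was as large in these fits, but TYK2-209 was listed at 0 in every shPCBP1 library. Leaving out a shPCBP1 library therefore could not change the difference, and the pseudocount sets its size. A pseudocount of 0.01 TPM also ended the call of TYK2-209. As with the genes, nothing is read from these counts.

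By TPM, coding transcripts were a minor part of TYK2. Transcripts annotated as retained intron held 53.0% ± 0.888 of TYK2 TPM in shCtrl and 56.0% ± 3.88 in shPCBP1, and protein-coding transcripts held 25.6% ± 1.92 and 21.1% ± 2.23. The protein-coding share was lower in every shPCBP1 library than in every shCtrl library. The main coding transcript, TYK2-204 with 25 exons, had 9.61, 12.1 and 6.78 TPM in shCtrl and 3.40, 4.60 and 5.05 in shPCBP1.

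Intron 20 of TYK2-204 (chromosome 19, 10353647 to 10354041, 395 bases) was retained in 5 transcripts and spliced out in 12. Retaining transcripts summed to 13.5, 14.0 and 11.6 TPM in shCtrl and 10.4, 10.2 and 10.8 in shPCBP1. Splicing transcripts summed to 18.7, 18.7 and 18.98 TPM in shCtrl and 10.49, 10.9 and 10.7 in shPCBP1. Both kinds were lower in every shPCBP1 library, with the larger difference in the spliced kind. The retaining share was therefore 42.0%, 42.8% and 38.0% in shCtrl and 49.8%, 48.4% and 50.1% in shPCBP1, without overlap, a difference of 8.49 percentage points between means. The most abundant retaining transcript, TYK2-220, had 9.64, 9.04 and 8.36 TPM in shCtrl and 5.01, 4.69 and 4.39 in shPCBP1.

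Intron 17 (chromosome 19, 10356719 to 10357763, 1045 bases) was retained at a lower level, in 4 transcripts. These summed to 2.83, 3.37 and 2.85 TPM in shCtrl and 2.92, 2.77 and 2.46 in shPCBP1, so the groups overlapped. The transcripts that splice it went from 30.8 ± 1.13 to 21.2 ± 0.885 TPM, and the retaining share went from 8.91% ± 0.808 to 11.4% ± 1.29. TYK2-209, which retains intron 17 and splices intron 20, had 1.18, 1.24 and 1.53 TPM in shCtrl and was listed at 0 in every shPCBP1 library. A listed 0 can be a failed estimate, and TYK2-219, which retains both introns, had 1.44, 1.13 and 1.24 TPM in shPCBP1. TYK2-217 was listed at 0 in every shCtrl library and had 1.48, 0.706 and 0 TPM in shPCBP1. TYK2-221 had 0.244, 0.457 and 0 TPM in shCtrl and 0, 0.935 and 1.21 in shPCBP1. Of the transcripts that retain intron 17, only TYK2-217 and TYK2-221 had a higher mean in shPCBP1. The direction of its share thus rests on estimates that were 0 in some libraries. Introns 7 and 8, retained in 2 and 1 transcripts, had shares that did not overlap, with means that went from 5.63% to 7.89% and from 4.53% to 7.12%. Their retaining TPM overlapped between groups. The means were 1.92 in shCtrl and 1.91 in shPCBP1 for intron 7, and 1.54 and 1.73 for intron 8. The spliced sums were lower in every shPCBP1 library, with means from 32.2 to 22.3 TPM and from 32.6 to 22.5 TPM.

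The splice sites of introns 17 and 20 are shown because PCBP1 binds C-rich RNA, with exon bases in capitals and 24 intron bases in lower case.
TYK2 intron 17 donor, chr19:10357740-10357769: TCCGAGgtatgtctaggagacccttgggcc
TYK2 intron 17 acceptor, chr19:10356713-10356742: tcctctgggtccctttcccaacagAAGGAG
TYK2 intron 20 donor, chr19:10354018-10354047: ACCAAGgtgggcgggacccggcgagtccta
TYK2 intron 20 acceptor, chr19:10353641-10353670: cggggccgcccctctccgcggcagGCGAGA
The intron part of the acceptor window held 41.7% C for intron 17 and 50% for intron 20. The median over the 24 introns of TYK2-204 was 41.7%, so neither stood out within the gene. The same median was 18.8% over the 8 introns of IFNAR2-202, 20.8% over the 6 of IL10RB-201 and 12.5% over the 10 of IFNAR1-201, the transcripts of the chromosome 21 receptors compared here. C content was not counted for JAK1, IFNGR1 or IFNGR2 or over all genes. Whether it bears on the differences between groups was not tested.

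**Figure D2:**
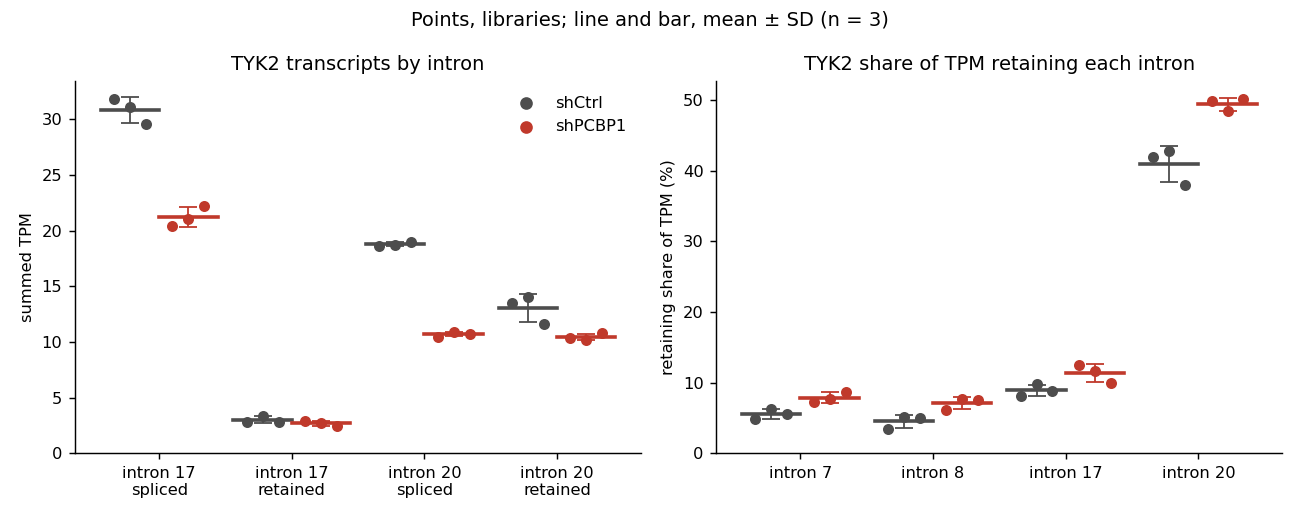
Left, summed TPM of TYK2 transcripts that splice or retain introns 17 and 20. Right, the share of TPM that retains introns 7, 8, 17 and 20, in percent. Points are libraries of shCtrl (grey) and shPCBP1 (red), and lines and bars are mean ± SD (n = 3). The spliced sums were lower in all shPCBP1 libraries, and the retaining share of intron 20 lay between 48.4% and 50.1% there against 38.0% to 42.8% in shCtrl.

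IFNAR2 was carried mainly by the short membrane form, which lacks most of the cytoplasmic tail and with it the sites through which the full-length chain signals. Short-form transcripts summed to 10.4, 8.43 and 8.70 TPM in shCtrl and 7.11, 8.69 and 7.81 in shPCBP1. Full-length transcripts summed to 2.46, 2.13 and 2.81 TPM in shCtrl and 1.504, 1.83 and 2.63 in shPCBP1. The groups overlapped for each form, although those of the whole gene did not. The short form held 67.8% ± 4.98 of the TPM of protein-coding IFNAR2 transcripts in shCtrl and 70.1% ± 3.81 in shPCBP1, and the full-length form 18.4% ± 3.75 and 17.7% ± 4.90. Another membrane transcript, IFNAR2-209, with an incomplete coding sequence, held 17.5% in shCtrl replicate 2 and was listed at 0 in every other library. It adds to the total from which the shares of that library are taken, and the short-form share there was 62.1%.

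Transcripts without a transmembrane segment were scarce. Of the protein-coding transcripts, 3 fell in this class by their coding sequence, and IFNAR2-206 among them was listed at 0 throughout. The annotated soluble form, IFNAR2-201, had 0.498, 0.363 and 0.422 TPM in shCtrl and 0.411, 0.570 and 0 in shPCBP1. The other, IFNAR2-210, has an incomplete coding sequence that stops before the transmembrane exon, and had 1.25, 0.277 and 0.477 TPM in shCtrl and 1.62, 0.609 and 0.856 in shPCBP1. Together they held 11.95%, 4.71% and 7.25% of coding IFNAR2 TPM in shCtrl and 19.1%, 10.1% and 7.57% in shPCBP1. The groups overlapped, with means of 7.97% ± 3.67 and 12.2% ± 6.05. With complete coding sequences only, the shares were 3.53% ± 0.196 and 3.23% ± 2.81, so the direction of the difference depended on the incomplete transcript. The class also held 3 transcripts annotated as targets of nonsense-mediated decay, which were left out of these shares. Of these, all but IFNAR2-211 were listed at 0 throughout, and it had 0.320, 0.547 and 0 TPM in shCtrl and 0.254, 0 and 0.506 in shPCBP1.

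The readthrough gene was far less abundant than its parents. IFNAR2-IL10RB had 64.5, 41.3 and 70.9 normalized counts in shCtrl and 145, 214 and 156 in shPCBP1, and every shPCBP1 library was above every shCtrl library. The log2 fold change was 1.53 (SE 0.300), or 2.89-fold, the value for which the cluster was proposed. In TPM it was 0.284 ± 0.115 in shCtrl and 0.852 ± 0.179 in shPCBP1, beside 13.2 TPM of IFNAR2 and 18.8 TPM of IL10RB in shPCBP1. Reads in the exons it shares with its parents were divided between the genes by estimation. Before normalization, a library held between 37.6 and 180 estimated counts of the readthrough gene.

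The difference was not shared by all 5 readthrough transcripts. IFNAR2-IL10RB-205, which holds the whole coding sequence of full-length IFNAR2 and then continues into IL10RB exons, had 0, 18.1 and 0 estimated counts in shCtrl and 38.2, 92.7 and 96.8 in shPCBP1. It is annotated as a target of nonsense-mediated decay, since its stop codon lies upstream of further junctions, and its groups did not overlap. The coding transcript 202 had 39.7, 0 and 35.6 estimated counts in shCtrl and 34.7, 32.0 and 4.794 in shPCBP1, with overlapping groups. Transcript 204 had 48.3, 11.9 and 71.9 in shCtrl and 56.0, 51.6 and 0 in shPCBP1, also with overlap. Transcript 201 was listed at 0 in shCtrl and in shPCBP1 replicate 1. When only protein-coding transcripts were counted, the log2 fold change of the readthrough gene was 0.63.

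The exon joined by transcripts 204 and 205 is shown with its acceptor and with the junction of transcript 205, in the same letter case as above.
readthrough exon acceptor, chr21:33265988-33266017: gtgttgtttatccctggggagaagGGTAAA
transcript 205 junction: gttcctttcttccagGGTAAAGAAGACCCT
The left side of this junction ends at 33263637, in the last exon of IFNAR2 and after the stop codon of the full-length form.

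**Figure D3:**
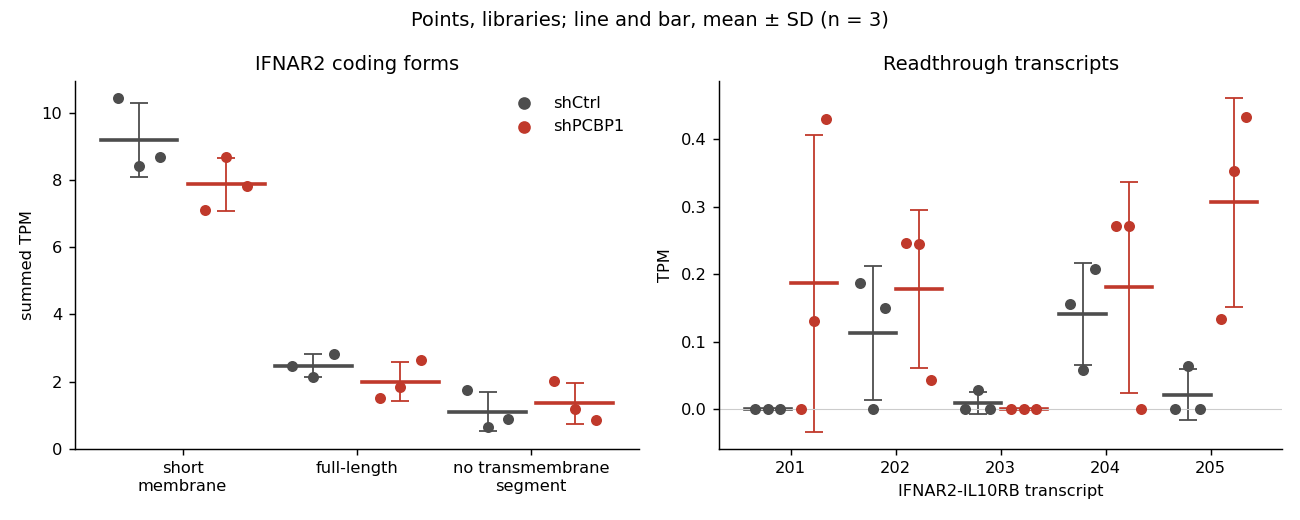
Left, summed TPM of IFNAR2 coding transcripts by form. Right, TPM of the 5 IFNAR2-IL10RB readthrough transcripts. Points are libraries of shCtrl (grey) and shPCBP1 (red), and lines and bars are mean ± SD (n = 3), whose lower ends can pass 0. The short membrane form was highest in every library, and transcript 205 was the readthrough transcript whose groups did not overlap.

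By TPM, the most abundant IFNAR1 transcript was an internal one. IFNAR1-227, with 2 exons at 33336097 to 33336523 and 33339912 to 33341134 and no defined coding sequence, had 18.6, 19.8 and 17.6 TPM in shCtrl and 18.4, 18.4 and 17.96 in shPCBP1. It held 43.1% of IFNAR1 TPM in shCtrl and 42.6% in shPCBP1. The coding transcript IFNAR1-201 had 4.37, 4.94 and 4.97 TPM in shCtrl and 4.94, 3.40 and 4.57 in shPCBP1. Protein-coding transcripts held 17.99% ± 1.61 of IFNAR1 TPM in shCtrl and 16.8% ± 0.451 in shPCBP1.

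JAK1 differed in the mix of its transcripts. Protein-coding transcripts held 60.5%, 72.9% and 62.8% of JAK1 TPM in shCtrl and 80.8%, 75.1% and 76.5% in shPCBP1. Transcripts without a defined coding sequence held 28.2%, 21.03% and 31.0% in shCtrl and 15.9%, 16.3% and 18.7% in shPCBP1. The groups did not overlap for either class, and the coding share was higher in shPCBP1. JAK1-202, a transcript without defined coding sequence, had 8.88, 6.41 and 9.46 TPM in shCtrl and 4.86, 5.41 and 5.93 in shPCBP1, and the coding transcript JAK1-210 had 12.3, 15.9 and 12.1 and 14.3, 17.8 and 15.7. Few transcripts carried the interferon gamma receptors. IFNGR1-201 had 10.0, 10.99 and 9.81 TPM in shCtrl and 7.56, 7.57 and 8.65 in shPCBP1, and IFNGR2-201 held 90.7% of IFNGR2 TPM in shCtrl and 88.1% in shPCBP1.

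The other genes of the pathway, which were not members, were tested in lists drawn up with earlier results of these data known. Of 178 genes in 8 lists, 116 were tested and 37 were called, 21 higher and 16 lower, a share of 31.9% beside 31.2% of all genes tested. Their median log2 fold change was 0.00818. Some of the genes named below share sequence with another annotated gene, on the opposite strand for IL6ST, IL23R, STAT6, SOCS1, PIAS3, ISG15, CMPK2, PSME1, TBK1 and EIF2AK2 and on the same strand for IL11RA and TAP2, which makes their values less certain.

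The ligands of these receptors were close to absent. Of 24 interferon and cytokine genes, 21 were listed at 0 in every library and 0 were tested, and their summed TPM was at most 0.236 in any library. IL10 itself averaged 0.180 TPM in shCtrl and 0.142 TPM in shPCBP1. Among 7 other class II cytokine receptors, 3 were tested and 0 were called by DESeq2, with 0 at an unadjusted p under 0.05 and 0 called by edgeR. Their median log2 fold change was -0.29. IL10RA, the ligand-binding partner of IL10RB and named here for that reason after its values were seen, averaged 1062 ± 112 normalized counts in shCtrl against 1090 ± 86.3 in shPCBP1 (log2 fold change 0.04, SE 0.107).

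Among 14 tested receptors of other cytokines that use JAK1 or TYK2, 1 rose and 2 fell, with a median log2 fold change of -0.04. IL6ST, the gp130 chain shared by receptors of the IL6 family, rose from 5380 ± 306 to 6955 ± 158 normalized counts (log2 fold change 0.37, SE 0.0522, DESeq2 adjusted p 5.15e-11). IL11RA, the binding chain for IL11, fell from 369 ± 42.8 to 224 ± 29.5 (-0.72, SE 0.180, DESeq2 adjusted p 0.000461). IL23R, the specific chain for IL23, fell from 1140 ± 112 to 910 ± 68.6 (-0.33, SE 0.107, DESeq2 adjusted p 0.00995). The call on IL23R was lost with transcript length offsets (-0.28) and when replicate 2 (-0.28) or 3 (-0.28) of shCtrl or replicate 1 of shPCBP1 (-0.27) was left out, and that on IL11RA when only protein-coding transcripts were counted (-0.86), where IL23R was -0.56. With transcript length offsets 2 receptors rose and 1 fell, LIFR being called there at 0.27 against 0.08 without them.

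Of 9 tested JAK kinases, STATs and IRF9, 2 fell and 0 rose, with a median of -0.07. STAT2, which joins IRF9 in the transcription factor complex downstream of IFNAR1 and IFNAR2, averaged 6031 ± 351 normalized counts in shCtrl against 4074 ± 332 in shPCBP1. Its log2 fold change was -0.57 (SE 0.0645, DESeq2 adjusted p 1.19e-16), and it was -1.25 when only protein-coding transcripts were counted. STAT6, the factor downstream of the IL4 receptor, fell by 0.31 on the log2 scale (SE 0.0634, DESeq2 adjusted p 8.83e-06). IRF9 had a log2 fold change of -0.27 (SE 0.121) and did not pass the test (DESeq2 adjusted p 0.0724). It was called with transcript length offsets (-0.44), with a mean count over 50 (-0.28) and without shCtrl replicate 1 (-0.34). IRF9 was named for its place beside STAT2 after its value was seen. In those settings 3 genes of the list were called, as with TMM factors and without shCtrl replicate 2.

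Negative regulators of the pathway were mostly higher. Of 19 tested, 11 rose and 2 fell, a called share of 68.4% with a median log2 fold change of 0.20, beside 31.2% and 0.00187 over all genes tested. The list was chosen with earlier results of these data known, so this share is given as a description. SOCS1, an inhibitor that binds JAK kinases and is itself induced by cytokines, had 829, 748 and 764 normalized counts in shCtrl and 1491, 1471 and 1493 in shPCBP1. Its groups lay far apart, and the log2 fold change was 0.93 (SE 0.0891, DESeq2 adjusted p 2.95e-23). PIAS3, an inhibitor of STAT3, rose from 3004 ± 50.01 to 4484 ± 28.7 (0.58, SE 0.0522, DESeq2 adjusted p 3.36e-26). SOCS4 rose by 0.32 (SE 0.0567, DESeq2 adjusted p 3.32e-07).

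Over the 8 SOCS family genes, CISH included, 6 rose and 1 fell. The one that fell, SOCS3, which acts on receptors of the gp130 type, went from 4068 ± 225 to 3449 ± 106 normalized counts (log2 fold change -0.24, SE 0.0597, DESeq2 adjusted p 0.000456). PTPN6, a phosphatase also called SHP1, fell by 0.56 (SE 0.164, DESeq2 adjusted p 0.00348), a call lost with transcript length offsets (-0.45). Several members of this list, among them the phosphatase PTPN11 and the ubiquitin ligase CBL, also act in growth factor signalling. The number called in this list was between 11 and 13 under every alternative, edgeR's 11 included.

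Target genes of type I interferon were divided. Of 35 tested out of 50, 6 rose and 6 fell, a called share of 34.3% with a median log2 fold change of -0.02. The summed TPM of all 50, in which the most abundant genes weigh most, was lower in every shPCBP1 library. It was 1545 to 1681 in shCtrl and 1333 to 1430 in shPCBP1. LGALS3BP, a secreted glycoprotein, fell by 0.74 (SE 0.203, DESeq2 adjusted p 0.00170), IFITM2, a membrane protein that limits virus entry, by 0.55 (SE 0.0775, DESeq2 adjusted p 3.61e-11), and ISG15, a ubiquitin-like modifier, by 0.48 (SE 0.122, DESeq2 adjusted p 0.000581). SAMD9 rose from 338 ± 37.3 to 564 ± 1.98 normalized counts (0.74, SE 0.141, DESeq2 adjusted p 2.07e-06). CMPK2, a mitochondrial nucleotide kinase, rose by 0.62 (SE 0.131, DESeq2 adjusted p 2.80e-05), and ZC3HAV1, the zinc finger antiviral protein, by 0.28 (SE 0.0630, DESeq2 adjusted p 6.50e-05). With transcript length offsets 4 rose and 7 fell, and the call on ZC3HAV1 was lost (0.19). IFITM2 has near-identical relatives with which reads may be shared, and its value is uncertain for that reason.

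Of 21 tested target genes of interferon gamma, 1 rose and 2 fell, with a median of -0.10. The summed TPM of the whole list was 847 to 867 in shCtrl and 791 to 831 in shPCBP1. B2M, the light chain of MHC class I, fell by 0.16 (SE 0.0398, DESeq2 adjusted p 0.000352), and PSME1, an activator subunit of the proteasome, by 0.16 (SE 0.0561, DESeq2 adjusted p 0.0161). TAP2, a peptide transporter subunit, rose by 0.26 (SE 0.0462, DESeq2 adjusted p 1.83e-07). The number called was 5 with TMM factors (1 higher and 4 lower), 5 with a mean count over 50 and 6 with protein-coding transcripts only. With transcript length offsets 2 rose and 2 fell, IRF1 being called there at 0.55 against 0.02 without them. The call on PSME1 was lost without shCtrl replicate 1 (-0.14) or shPCBP1 replicate 1 (-0.13).

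Of 15 tested nucleic acid sensors and interferon regulatory factors, 2 rose and 2 fell, with a median of 0.05. MAVS, the mitochondrial adaptor of RNA sensing, rose from 10120 ± 285 to 13294 ± 198 normalized counts (log2 fold change 0.39, SE 0.0395, DESeq2 adjusted p 2.45e-21), and EIF2AK2, the RNA-activated kinase PKR, by 0.16 (SE 0.0532, DESeq2 adjusted p 0.00965). STING1, the adaptor of DNA sensing, fell by 0.31 (SE 0.0487, DESeq2 adjusted p 7.88e-09), or by 0.60 when only protein-coding transcripts were counted. TBK1, the kinase downstream of both adaptors, fell by 0.14 (SE 0.0490, DESeq2 adjusted p 0.0130). With transcript length offsets, the calls on EIF2AK2 (0.09) and TBK1 (-0.10) were lost and 2 genes of the list were called. EIF2AK2 was also lost without shPCBP1 replicate 3 (0.12) and with protein-coding transcripts only (0.10), and TBK1 without shPCBP1 replicate 1 (-0.13). The number called in the list was 5 without shCtrl replicate 1, without shCtrl replicate 3 or without shPCBP1 replicate 2.

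**Figure D4:**
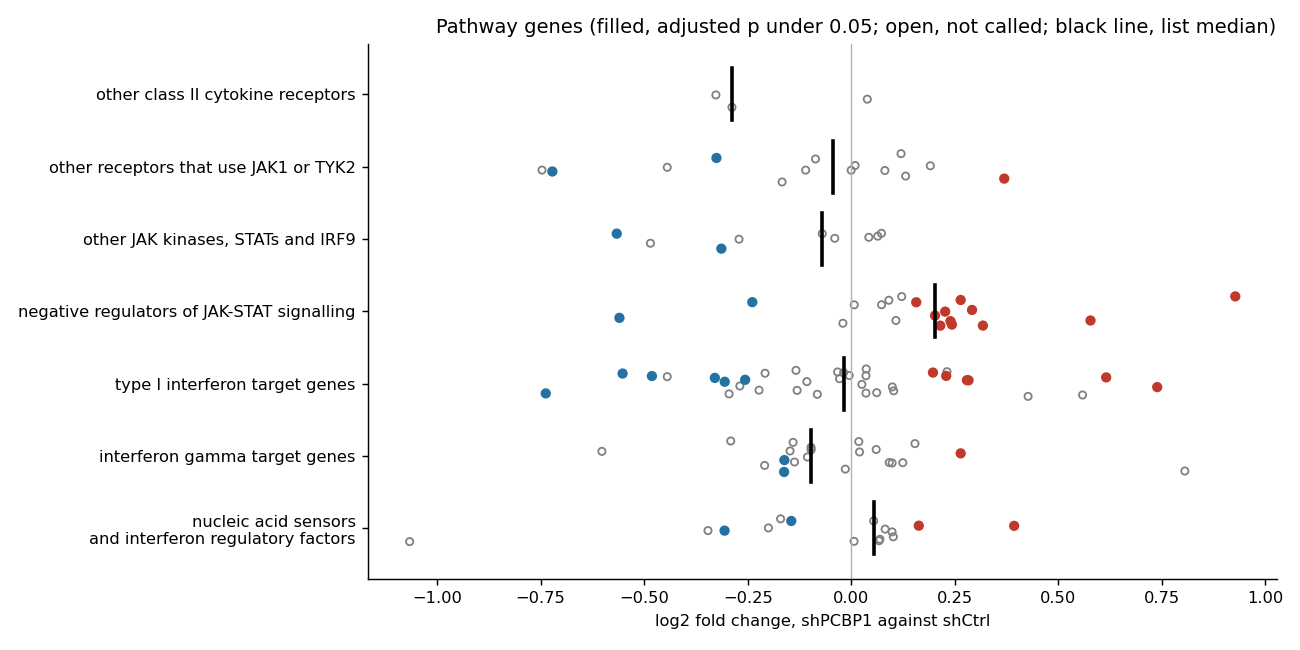
Log2 fold change, shPCBP1 against shCtrl (horizontal axis), of every tested gene of 7 pathway lists; the ligand list had no tested gene. Filled points passed the DESeq2 test at an adjusted p under 0.05 (red higher, blue lower), open points did not, and black lines are list medians. Most negative regulators lie to the right of 0, with a median of 0.20, while the type I targets lie on both sides.

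The genes around the chromosome 21 cluster were examined to see whether a difference was shared along the chromosome. Within 500 kb of the span from IFNAR2 to IFNGR2 (33205282 to 33479348), 14 other protein-coding genes are annotated, of which 11 were tested, 2 rose and 1 fell. SON, a splicing co-factor, rose from 48407 ± 2035 to 57747 ± 904 normalized counts (log2 fold change 0.25, SE 0.0363, DESeq2 adjusted p 7.70e-11). ATP5PO, a subunit of ATP synthase, fell by 0.20 (SE 0.0330, DESeq2 adjusted p 1.34e-08), and PAXBP1 rose by 0.13 (SE 0.0498, DESeq2 adjusted p 0.0319). SON overlaps GART and DONSON on the opposite strand, and ATP5PO lies within a readthrough gene on the same strand. The call on PAXBP1, whose groups overlapped, was lost with edgeR (0.12), with TMM factors (0.12), without independent filtering, and without shCtrl replicate 1 (0.14) or 2 (0.10) or shPCBP1 replicate 1 (0.10) or 3 (0.11), and the value was 0.20 when only protein-coding transcripts were counted.

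**Figure D5:**
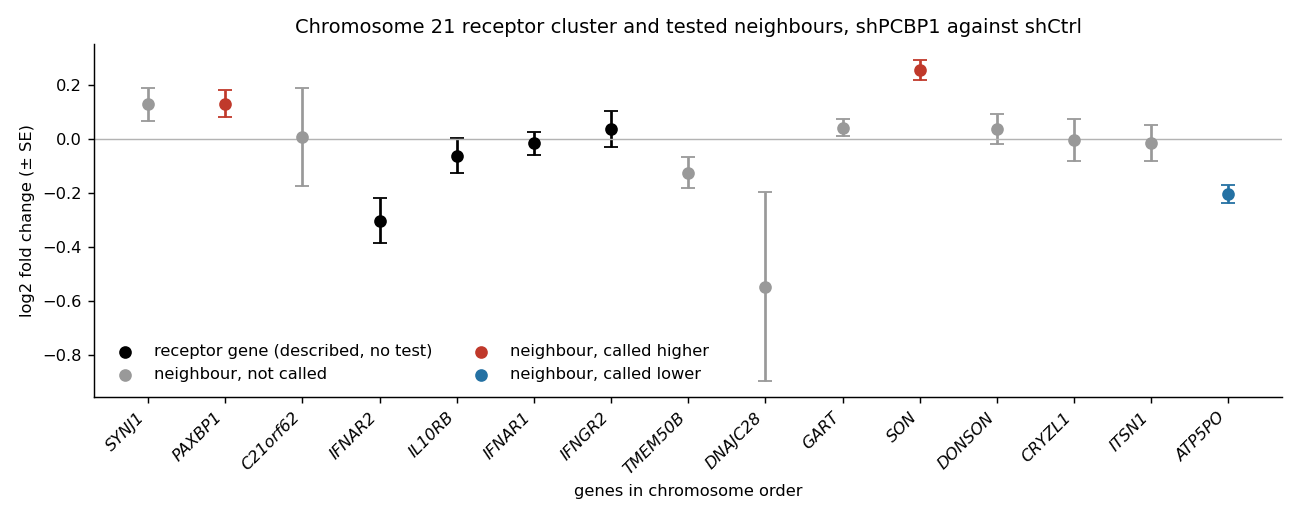
Log2 fold change ± SE, shPCBP1 against shCtrl, of the 4 receptor genes of chromosome 21 (black) and of the 11 tested neighbours, in chromosome order and not to distance. IFNAR2 at -0.30 lies below its receptor neighbours IL10RB at -0.06, IFNAR1 at -0.02 and IFNGR2 at 0.04, and called neighbours lie on both sides of 0.

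The genes whose centred log2 normalized counts lay closest to IFNAR2 over the 6 libraries, among 11616 protein-coding genes, were FHIP2B, MYCL and TP53I13. Their root mean square differences from IFNAR2 were 0.0306, 0.0394 and 0.0468, where the median gene had 0.220. The closest genes lie below the median by selection. Their log2 fold changes were -0.28, -0.33 and -0.26, since the measure picks genes that differ between the groups as IFNAR2 does. The genes closest to IL10RB were TBL1XR1, VASP and MPI, at 0.0161, 0.0168 and 0.0209, where the median gene had 0.124. All 3 genes closest to IL10RB were, like IL10RB, nearly level between the groups, which is what this measure selects.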

How the data were processed

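RNA from 3 shCtrl and 3 shPCBP1 libraries of K562 cells was analysed from per-transcript tables. The authors quantified reads with Salmon (1.10.2, per the submitters' notes); the deposited estimated counts are not normalized and need not be whole, and the deposited TPM values were made comparable between transcripts by Salmon through their effective lengths. Notes name build hg38, and the annotation release of the index is not given in the sources used here. Of 252045 transcripts, 251612 matched GENCODE release 44, and the rest held 0.136% to 0.147% of counts.

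Counts were summed per gene, rounded and tested with DESeq2 1.42.0 (two-sided Wald test, group only, summed count of at least 10, Benjamini-Hochberg adjustment over all genes). Normalized counts are divided by size factors. Log2(TPM + 0.1) was tested with limma 3.58.1 for transcripts with a mean of at least 0.5 TPM. Values that received no adjusted p were left out of counts of tested genes. Both fits were tested on simulated data. IFNAR2 forms were assigned from translated GENCODE coding sequences, the absence of a transmembrane segment meaning no 19-residue window after residue 40 with a mean hydropathy over 1.6. Junction reads were not used, so intron retention comes from transcript estimates.

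Members and lists were chosen with earlier results of these data known. Named were the members, PCBP1, up to 3 called genes for each list and direction (largest fold change, mean count of at least 100, groups not overlapping), called neighbours and the 3 genes closest to IFNAR2 and to IL10RB. The labels do not say that libraries are separate cultures, so p-values measure only the spread between these samples. Libraries of a group differed by more than sampling noise (chi-square per degree of freedom 6.19 to 15.1). Alternatives covered edgeR 4.0.16, TMM factors, length offsets, filters, pseudocounts, transcript choice, a replicate block and leaving out each library. Versions were R 4.3.3 and Python 3.11.15.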

Additional observations from a re-analysis of the deposited data

How the results depend on the processing

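The number of genes called (5332), of pathway genes called (37) and of called neighbours (3) stayed within 1.5 times under every alternative run, apart from exceptions given per list and gene beside the results. Without each library in turn they were 4175 to 5145, 32 to 37 and 2 to 3. Transcript calls depended on the settings. Against 1668 in all, 612 were called with no filter on TPM, 2868 with a mean TPM of at least 5, and 321 to 633 without each library, and the cause was not tested. With the replicate number as a block, 2 transcripts, 4297 genes, 33 pathway genes and 3 neighbours were called, and neither TYK2 transcript was. The fold changes of the TYK2 transcripts cannot differ under the block, because each number occurs once in each group. Deviations from the group means were close to uncorrelated between libraries that carry the same number (0.0130, 0.00453 and -0.0285). The labels do not say whether such libraries were processed together, and these values cannot decide it. TYK2-220 kept its fall of 0.88 to 0.98 on the log2 scale without each library, and its call was lost in 3 of these 6 fits.

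The difference in IFNAR2 share without a transmembrane segment was 4.27 points, 0.850 to 6.60 without each library, 1.13 with estimated counts in place of TPM, and -0.293 with complete coding sequences only, an alternative chosen after seeing the data. IFNAR1 reversed to 0.0090 with length offsets, was -0.15 with protein-coding transcripts only and lay between -0.032 and 0.0086 without each library, being above 0 without shPCBP1 replicate 3 only, and IFNGR2 reversed to -0.00087 with protein-coding transcripts only. PSME1 (-0.16, with or without the block) and TBK1 (-0.15 with it, -0.14 without) lost their calls under the block. Depth limits the readthrough transcripts, each with under 100 estimated counts in a library.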
